A study of Rattus norvegicus with 16 samples.

Results

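A set of 9 genes of fibrinolysis and coagulation, out of 17245 genes measured, was followed in cells that adhered to titanium implants placed in rat tibiae. They were chosen by name as components of clot formation and clot removal at a wound: the plasminogen activators Plau and Plat, the urokinase receptor Plaur, the inhibitors Serpine2 and Serpinb2, tissue factor (F3), factor X (F10), the A subunit of factor XIII (F13a1) and thrombomodulin (Thbd). Each was read by 1 row of an Affymetrix Rat Gene 1.1 ST array, a whole-transcript expression array. AT-I implants, whose titanium surface carried nanoscale features, were compared with AT-II implants, which were microrough without such features. Each surface was retrieved 4 days and 2 days after placement, which gives 4 groups of 4 arrays. All animals were male Sprague Dawley rats with no stated age or genetic change, and all had the same surgery and daily ketoprofen for pain, so no group lacked surgery or an implant. Each day had 4 rats, 8 in all, and each rat had AT-I implants on 1 side and AT-II implants on the opposite side. An array held RNA pooled from the cells on the 2 implants of 1 tibia, and the replicate numbers in the labels are not tied to rats.

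A blood clot is the first tissue to form against an implant. Tissue factor exposed on cells starts the coagulation cascade, factor X carries it to thrombin, and factor XIII cross-links the fibrin that thrombin makes. Urokinase (Plau) and tissue plasminogen activator (Plat) turn plasminogen into plasmin, which dissolves fibrin, and serpins hold these proteases in check, while thrombomodulin turns thrombin toward the anticoagulant protein C pathway. Fibrin is later replaced by granulation tissue and, in bone, by osteoid.

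Values are log2 array values, in which a difference of 1 is a 2-fold difference, taken to be base 2 from the RMA method. AT-II day 2 replicates 2 and 3 agreed more closely than the other 119 pairs of arrays: 0 rows of high signal differed over 2-fold, against at least 8 in the others. The 2 arrays, whose values for the 9 genes differed by 0.0940 on average, were averaged and counted as 1 sample, so that AT-II day 2 has n = 3 and the tests use 15 samples. The interquartile range of the arrays ran from 2.48 to 3.43. The mean of 10 measured osteoblast markers (12 listed) was 10.42 to 11.02 in AT-I day 4 arrays and 10.43 to 11.10 in AT-II day 4 arrays, against 7.36 to 8.57 in AT-I day 2 arrays and 7.59 to 8.98 in AT-II day 2 arrays. In RNA from a mixture of cells, fewer cells of a type and less RNA per cell cannot be told apart.

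RefSeq promoter sequence of the GRCr8 build was held for 6 of the 9 genes, namely Plau, Plaur, Serpine2, Serpinb2, F10 and F13a1, and sequences of F3, Plat and Thbd are not used here. The 250 bases before the annotated start are printed for Serpine2 and Plau, which across samples were each other's nearest among the 9 genes, and for Plaur, whose nearest was F3. Plaur and F3 were both highest in the same 2 day 2 samples. Each reads 5′ to 3′ in the direction of transcription, and capitals mark a match to the AP-1 motif TGANTCA. Serpine2 lies on the minus strand at chr9:88637203-88637452, Plau on the minus strand at chr15:3511988-3512237, and Plaur on the plus strand at chr1:89181113-89181362.
Serpine2: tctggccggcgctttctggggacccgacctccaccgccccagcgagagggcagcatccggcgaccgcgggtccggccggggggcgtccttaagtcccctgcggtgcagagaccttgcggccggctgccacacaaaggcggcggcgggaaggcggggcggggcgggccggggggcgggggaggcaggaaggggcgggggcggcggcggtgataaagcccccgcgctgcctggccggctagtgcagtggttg
Plau: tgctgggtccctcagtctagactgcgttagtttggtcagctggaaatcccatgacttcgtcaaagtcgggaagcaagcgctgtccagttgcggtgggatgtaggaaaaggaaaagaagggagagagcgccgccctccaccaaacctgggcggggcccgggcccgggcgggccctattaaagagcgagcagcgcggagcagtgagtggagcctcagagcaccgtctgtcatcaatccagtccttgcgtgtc
Plaur: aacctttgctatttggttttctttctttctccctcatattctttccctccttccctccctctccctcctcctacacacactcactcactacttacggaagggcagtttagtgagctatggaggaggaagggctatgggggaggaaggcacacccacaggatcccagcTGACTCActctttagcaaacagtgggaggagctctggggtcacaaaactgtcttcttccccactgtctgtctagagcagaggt

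The Serpine2 sequence was 76.8% G or C with 30 CG pairs, against a median of 51.2% and 5.0 CG pairs over all 33469 promoters in the table, and 97.6% of them had a lower share. The Plau sequence was 60% G or C with 16 CG pairs, and the Plaur sequence 51.2% with 1 CG pair. The AP-1 motif, searched on both strands, was found in 2 of the 6 promoters, in Plaur as TGACTCA with its first base 83 bases before the start and in Serpinb2 as TGATTCA at 189 bases, and 6.34% of all promoters hold it. A motif of 10 positions like that of NF-kB was found in F10 as GGAAATCCCC at 150 bases, and 15% of all promoters hold it. TATAAA (12.9% of all promoters) and the E-box CACGTG (5.59%) were found in none of the 6. No promoter of the 6 held matches to more than 1 of these motifs, and a match describes letters only.

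Serpine2 was the gene of the 9 that passed the test between the days, and it was higher at day 4 on both surfaces. It encodes protease nexin-1, a serpin that inhibits thrombin, urokinase and plasmin at cell surfaces and in the matrix. The 4 AT-I day 4 arrays read 10.58, 10.35, 10.06 and 11.18, and the 4 AT-I day 2 arrays 7.91, 9.29, 8.91 and 8.99. The 4 AT-II day 4 arrays read 10.52, 10.40, 10.76 and 10.62, and the 4 AT-II day 2 arrays 9.34, 9.33, 9.35 and 9.47. On each surface all day 4 values lay above all day 2 values, and the AT-II day 2 arrays were nearly level with each other. The mean was 10.54 ± 0.48 at day 4 on AT-I (SD, n = 4), against 8.78 ± 0.60 at day 2 (SD, n = 4). Day 4 was 3.40-fold day 2 on AT-I, a log2 difference of 1.76 ± 0.26 (SE; limma, adjusted p = 0.000409 by Benjamini-Hochberg over all genes). On AT-II the means were 10.57 ± 0.15 at day 4 (SD, n = 4) and 9.38 ± 0.07 at day 2 (SD, n = 3), 2.29-fold apart, with a log2 difference of 1.19 ± 0.28 (SE; limma, adjusted p = 0.0256). Leaving out any of 6 AT-II samples singly ended the AT-II call while the difference stayed between 1.13 and 1.24. At day 2 they were AT-II replicate 1 (adjusted p = 0.123), the averaged sample (0.108) and replicate 4 (0.0519), and at day 4 AT-II replicates 1 (0.0681), 3 (0.0801) and 4 (0.0588). The rise was 0.57 ± 0.38 larger on AT-I than on AT-II (SE), a difference between surfaces that did not pass (limma, adjusted p = 0.924, 95% interval -0.24 to 1.38).

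Of the 9 genes, 1 was higher at day 4 and 0 lower on AT-I past adjusted p under 0.05 (limma), against 8.84% of all genes higher and 2.66% lower (11.5% in either direction). Over all genes that was 1525 higher and 458 lower, but 992 higher and 1509 lower with arrays centred at their medians and 1214 and 640 with quantile normalization repeated. On AT-II the count was likewise 1 higher and 0 lower, against 3.13% and 0.203% of all genes (3.33% in either direction), or 540 higher and 35 lower over all genes, and 366 and 143 with centred arrays. With groups that did not overlap, 1 gene was higher at day 4 on AT-I (11.3% of all genes) and 2 were lower (4.01%), and on AT-II 1 was higher (8.74%) and 0 lower (7.63%). The median log2 difference of the 9 was -0.27 on AT-I and -0.30 on AT-II, against -0.05 on each surface for all genes. A count of 1 in 9 is near the share of all genes on AT-I, and on AT-II it rests on Serpine2 alone.

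**Figure D1:**
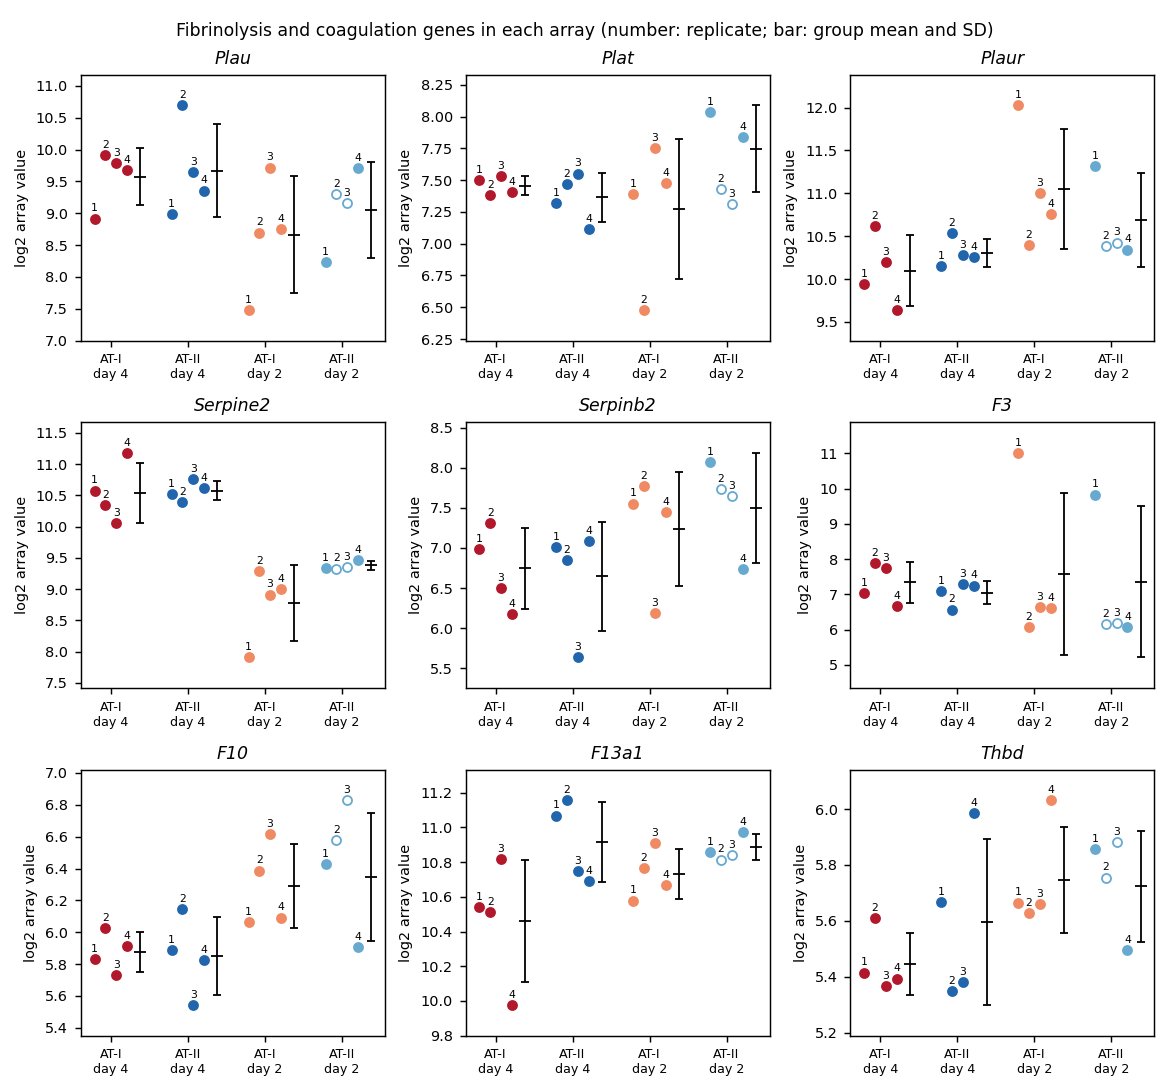
Log2 array value (vertical axis) of each of the 9 genes by group (horizontal axis, day 4 left of day 2 and AT-I left of AT-II). Points are arrays, open circles are the 2 arrays averaged as 1 sample, and bars are the mean and SD of the samples. Serpine2 at day 4 lies above 10.0 in all 8 arrays and at day 2 below 9.5 in all 8, while F3 has 1 array in each day 2 group far above the others.

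Serpine2 moved with markers of mesenchymal and bone-forming cells. Of 12 mesenchymal and fibroblast markers, all measured, 8 rose on AT-I and 2 on AT-II, and their mean was 10.00 to 10.31 in AT-I day 4 arrays and 10.09 to 10.34 in AT-II day 4 arrays, against 8.32 to 9.42 in AT-I day 2 arrays and 8.83 to 9.66 in AT-II day 2 arrays. Of the 10 measured osteoblast markers, 10 rose on AT-I and 9 on AT-II. Beside these counts, 8.84% of all genes rose on AT-I and 3.13% on AT-II. The part of the markers in the Serpine2 difference was not tested. Within day 2, AT-I replicate 1 had the lowest Serpine2 value of all 16 arrays and also the lowest mesenchymal (8.32) and osteoblast (7.36) means. AT-II day 2 replicate 1 had the lowest means of its group too (8.83 and 7.59), but its Serpine2 value of 9.34 lay within the 9.33 to 9.47 of the other arrays there.

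**Figure D2:**
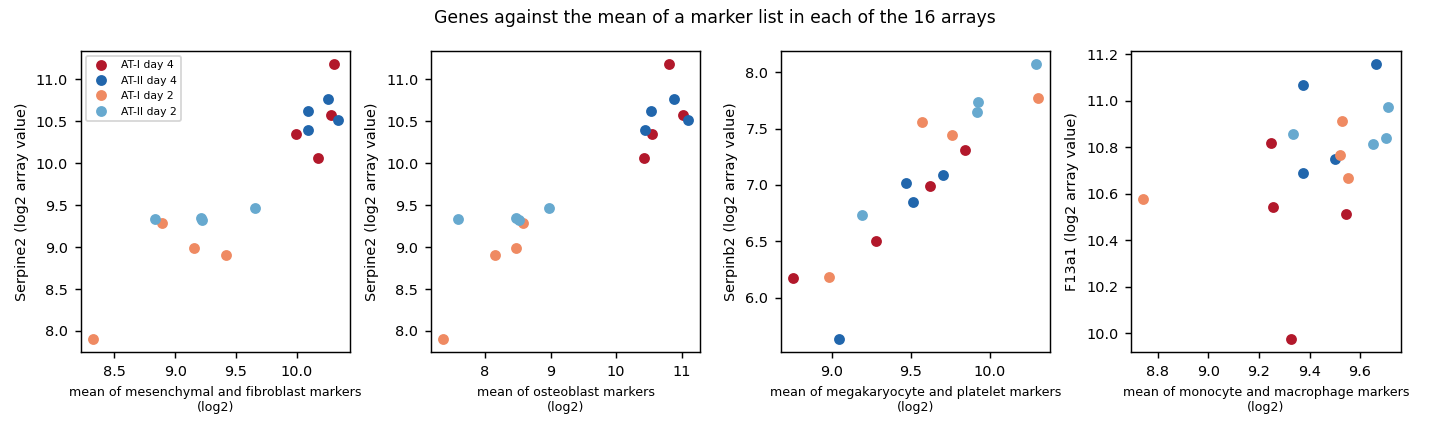
Each point is 1 of the 16 arrays, coloured by group. The vertical axes give the log2 value of Serpine2 (first and second panels), Serpinb2 and F13a1, and the horizontal axes the mean log2 value of mesenchymal, osteoblast, platelet and monocyte marker lists. Serpine2 at day 4 sits at osteoblast means of 10.42 to 11.10, and Serpinb2 is lowest in its group where the platelet mean is lowest.

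The plasminogen activators did not pass between the days. Plau, urokinase, read 8.92, 9.91, 9.79 and 9.68 in AT-I day 4 arrays, and 7.48, 8.70, 9.72 and 8.75 in AT-I day 2 arrays. It read 8.99, 10.70, 9.65 and 9.36 in AT-II day 4 arrays, and 8.23, 9.30, 9.16 and 9.71 in AT-II day 2 arrays. The groups overlapped on both surfaces, and replicate 1 was the lowest of its 4 arrays in all 4 groups. Plau averaged 9.57 ± 0.45 at day 4 and 8.66 ± 0.92 at day 2 on AT-I (SD, n = 4 each), a difference of 0.91 ± 0.44 (SE; limma, adjusted p = 0.194). On AT-II the difference was 0.61 ± 0.48 (SE; limma, adjusted p = 0.671), with an interval of -0.41 to 1.64. Without the 2 day 2 samples numbered 1 the differences were 0.52 on AT-I and 0.20 on AT-II, a setting added after the values were seen.

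Plat, tissue plasminogen activator, which is made largely by endothelial cells and drives fibrinolysis in blood vessels, lay in a narrow band at day 4. It read 7.50, 7.38, 7.53 and 7.41 in AT-I day 4 arrays, against 7.39, 6.48, 7.75 and 7.48 in AT-I day 2 arrays. In AT-II day 4 arrays it read 7.32, 7.47, 7.55 and 7.11, against 8.03, 7.43, 7.31 and 7.84 in AT-II day 2 arrays. Day 4 and day 2 values overlapped on both surfaces. Their differences were 0.18 ± 0.22 on AT-I (SE; limma, adjusted p = 0.606) and -0.38 ± 0.24 on AT-II (SE; limma, adjusted p = 0.562). The mean of 9 measured endothelial markers (12 listed) was 7.35 to 7.54 in AT-I day 4 arrays and 7.38 to 7.63 in AT-II day 4 arrays, against 7.13 to 7.23 in AT-I day 2 arrays and 7.35 to 7.76 in AT-II day 2 arrays.

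Plaur, the receptor that binds urokinase at the surface of leukocytes and migrating cells, had lower means at day 4 on both surfaces without passing the test. It read 9.94, 10.62, 10.20 and 9.64 in AT-I day 4 arrays, and 12.03, 10.39, 11.01 and 10.76 in AT-I day 2 arrays. It read 10.15, 10.54, 10.28 and 10.26 in AT-II day 4 arrays, and 11.32, 10.38, 10.42 and 10.34 in AT-II day 2 arrays. Replicate 1 was the highest in each day 2 group, and the groups overlapped. The AT-I means were 10.10 ± 0.41 at day 4 and 11.05 ± 0.70 at day 2 (SD, n = 4 each), a difference of -0.95 ± 0.31 (SE; limma, adjusted p = 0.0563, 95% interval -1.60 to -0.30). The adjusted p was under 0.05 in 8 of 29 other settings, and without AT-I day 2 replicate 1 the difference was -0.62 (limma, adjusted p = 0.156). On AT-II the difference was -0.38 ± 0.33 (SE; limma, adjusted p = 0.710), and -0.07 if AT-II day 2 replicate 1 was left out. The difference between the surfaces' time courses was -0.57 ± 0.45 (SE; limma, adjusted p = 0.924).

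Serpinb2, plasminogen activator inhibitor 2, a serpin made by activated macrophages and keratinocytes, overlapped between the days on both surfaces. It read 6.99, 7.31, 6.50 and 6.18 in AT-I day 4 arrays, and 7.55, 7.77, 6.19 and 7.44 in AT-I day 2 arrays. It read 7.01, 6.85, 5.64 and 7.08 in AT-II day 4 arrays, and 8.07, 7.74, 7.65 and 6.73 in AT-II day 2 arrays. In every group but AT-I day 4, 1 array lay well below the other 3. The difference was -0.49 ± 0.40 on AT-I (SE; limma, adjusted p = 0.424) and -0.85 ± 0.43 on AT-II (SE; limma, adjusted p = 0.427). Single arrays moved these values: leaving out 1 sample gave -0.84 (without AT-I day 2 replicate 3) to -0.31 (without AT-I day 4 replicate 4) on AT-I. On AT-II it gave -1.23 (without AT-II day 2 replicate 4) to -0.52 (without AT-II day 4 replicate 3).

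Within the groups, Serpinb2 was high and low in the same arrays as platelet and neutrophil markers. In 4 of 4 groups the array with the lowest Serpinb2 also had the lowest mean of 9 measured megakaryocyte and platelet markers (14 listed), and in 4 of 4 the array with the highest Serpinb2 had the highest mean. The same held for the 12 neutrophil markers, in 4 of 4 groups at each end. The platelet and neutrophil means had the same lowest and the same highest array in every group, so their matches are not separate agreements. For the 13 measured monocyte and macrophage markers (14 listed) the lowest arrays matched in 0 groups and the highest in 1. The matches were in 2 and 3 groups for the 8 measured erythroid markers and in 1 and 2 for the endothelial markers. They were in 0 and 1 for the osteoblast markers and in 0 and 0 for the mesenchymal markers. The platelet mean was 8.75 to 9.85 in AT-I day 4 arrays and 9.05 to 9.70 in AT-II day 4 arrays, against 8.98 to 10.31 in AT-I day 2 arrays and 9.19 to 10.29 in AT-II day 2 arrays. The neutrophil mean was 10.48 to 11.18 in AT-I day 4 arrays and 10.62 to 10.94 in AT-II day 4 arrays, against 10.73 to 11.44 in AT-I day 2 arrays and 10.83 to 11.42 in AT-II day 2 arrays. Their part in the Serpinb2 values was not tested.

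F3, tissue factor, the cell-surface receptor that starts coagulation, had the widest spread of the 9 genes, and 1 day 2 array on each surface set it. It read 7.04, 7.90, 7.76 and 6.67 in AT-I day 4 arrays, and 11.02, 6.07, 6.64 and 6.60 in AT-I day 2 arrays. It read 7.10, 6.57, 7.30 and 7.25 in AT-II day 4 arrays, and 9.83, 6.16, 6.19 and 6.07 in AT-II day 2 arrays. Apart from replicate 1, all day 2 values lay at or below 6.64 on AT-I and 6.19 on AT-II, and on each surface all 4 day 4 values lay above them. The differences over all samples were -0.24 ± 0.93 on AT-I (SE; limma, adjusted p = 0.882) and -0.30 ± 1.00 on AT-II (SE; limma, adjusted p = 0.952), with intervals of -2.22 to 1.73 and -2.44 to 1.83. Without both day 2 samples numbered 1, F3 was 0.90 higher at day 4 on AT-I (limma, adjusted p = 0.0605) and 0.93 higher on AT-II (limma, adjusted p = 0.223), in a setting added after the values were seen. The sign of the F3 difference thus turned with those 2 samples, and neither value passed.

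The 2 day 2 samples numbered 1 stood apart for several of the genes at once. In both, F3 and Plaur were the highest and Plau the lowest of their group, and the monocyte (8.74 on AT-I, 9.33 on AT-II), mesenchymal (8.32, 8.83) and osteoblast (7.36, 7.59) marker means were the lowest of their group. Serpine2, F10 and F13a1 were lowest in AT-I replicate 1 and within the range of the others in AT-II replicate 1. Whether the 2 samples came from the same rat is not given in the labels, and what sets them apart was not tested.

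F10, the serine protease zymogen that becomes factor Xa and is made mainly in the liver, read near the low end of the array. It read 5.83, 6.02, 5.73 and 5.91 in AT-I day 4 arrays, all below the 6.06, 6.39, 6.61 and 6.09 of AT-I day 2 arrays. In AT-II day 4 arrays it read 5.89, 6.15, 5.54 and 5.83, overlapping the 6.43, 6.58, 6.83 and 5.91 of AT-II day 2 arrays. The differences were -0.42 ± 0.18 on AT-I (SE; limma, adjusted p = 0.142) and -0.49 ± 0.19 on AT-II (SE; limma, adjusted p = 0.246), and neither passed after adjustment. As a gauge of low signal, 1305 rows of odorant, taste and vomeronasal receptor genes had a median of 5.20, and 91.9% of them read below the F10 mean of 6.07.

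Thbd, thrombomodulin, the endothelial and myeloid receptor that turns thrombin to protein C, also read near the low end, with 74.2% of those receptor rows below its mean of 5.62. It read 5.41, 5.61, 5.37 and 5.39 in AT-I day 4 arrays, all below the 5.67, 5.63, 5.66 and 6.03 of AT-I day 2 arrays. In AT-II day 4 arrays it read 5.67, 5.35, 5.38 and 5.99, against 5.86, 5.75, 5.88 and 5.50 in AT-II day 2 arrays, with overlap. The difference was -0.30 ± 0.15 on AT-I (SE; limma, adjusted p = 0.206) and -0.13 ± 0.16 on AT-II (SE; limma, adjusted p = 0.830). When arrays were centred at their medians, the median of all genes on AT-I became -0.21, and F10 (-0.57, limma adjusted p = 0.0426), Thbd (-0.46, 0.0410) and Plaur (-1.11, 0.0374) then passed. Relative to the median of all genes without centring, their AT-I differences were -0.37 for F10, -0.25 for Thbd and -0.90 for Plaur. Taken by their means, the other 7 genes read above 99.0% or more of the receptor rows. Single values did lie among those rows (middle 90% from 3.59 to 6.22). Apart from replicate 1, F3 read 6.07 to 6.19 in AT-II day 2 arrays, and it read 6.07 in AT-I day 2 replicate 2. Serpinb2 read 5.64 in AT-II day 4 replicate 3, 6.18 in AT-I day 4 replicate 4 and 6.19 in AT-I day 2 replicate 3. The size of the F3 rises without the day 2 samples numbered 1 is therefore less certain.

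F13a1, the A subunit of factor XIII, a transglutaminase that cross-links fibrin and is abundant in macrophages and platelets, varied little, over a range of 1.18 in the 16 arrays. It read 10.54, 10.51, 10.82 and 9.98 in AT-I day 4 arrays and 11.07, 11.16, 10.75 and 10.69 in AT-II day 4 arrays. At day 2 it read 10.58, 10.77, 10.91 and 10.67 in AT-I arrays and 10.86, 10.81, 10.84 and 10.97 in AT-II arrays. The day 4 values did not pass against day 2, with differences of -0.27 ± 0.16 on AT-I (SE; limma, adjusted p = 0.289) and 0.03 ± 0.18 on AT-II (SE; limma, adjusted p = 0.975). The monocyte and macrophage mean was likewise close between the days. It was 9.25 to 9.54 in AT-I day 4 arrays and 9.37 to 9.66 in AT-II day 4 arrays. At day 2 it was 8.74 to 9.55 in AT-I arrays and 9.33 to 9.71 in AT-II arrays. Of its 13 markers, 1 rose and 1 fell on AT-I, where 11.5% of all genes passed. The platelet mean was lower at day 4, at 9.38 against 9.65 on AT-I and 9.43 against 9.80 on AT-II. Of its 9 measured markers 0 passed on either surface. The part of these cells in the F13a1 values was not tested.

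**Figure D3:**
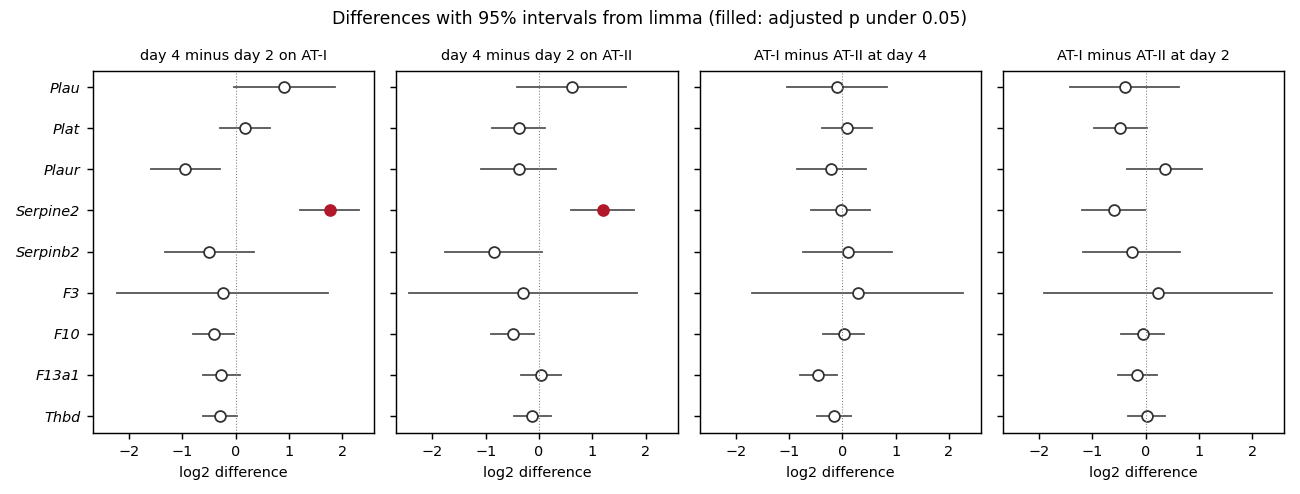
Log2 difference (horizontal axes) of each gene with its 95% interval from limma, for day 4 minus day 2 on AT-I and on AT-II and for AT-I minus AT-II at day 4 and at day 2. Filled points passed adjusted p under 0.05, and Serpine2 between the days (1.76 on AT-I, 1.19 on AT-II) holds both of them.

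Between the surfaces, 0 of the 9 genes passed at day 4 and 0 at day 2 (limma, adjusted p under 0.05; 0.00% of all genes at each day), and 0 passed in the difference between the time courses (0.00% of all genes). At an unadjusted p under 0.05, 1 gene passed at day 4 (3.98% of all genes), 1 at day 2 (27.3%) and 0 in the difference between the time courses (4.10%). The gene at day 4 was F13a1, which averaged 10.46 ± 0.35 on AT-I and 10.92 ± 0.23 on AT-II (SD, n = 4 each), a difference of -0.45 ± 0.16 (SE; limma, adjusted p = 0.913). AT-I day 4 replicate 4 had the lowest F13a1 of all 16 arrays, and without it the difference was -0.29. The gene at day 2 was Serpine2, at -0.60 ± 0.28 (SE; limma, adjusted p = 0.178), with all AT-I values below all AT-II values, as for 11.3% of all genes. Without AT-I day 2 replicate 1, its lowest array, the Serpine2 difference was -0.31 (limma, adjusted p = 0.388). The interquartile range was also lower in every AT-I day 2 array (2.48 to 2.98) than in every AT-II day 2 array (3.05 to 3.43), and with that range as a covariate the Serpine2 difference was -0.20 (limma, adjusted p = 0.996). Surface and array spread cannot be told apart at day 2. No other gene of the 9 was without overlap at day 2, where 8.83% of all genes were higher without overlap, and none was at day 4 (0.789% higher and 1.41% lower).

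The remaining surface differences did not pass. At day 2 Plat was -0.47 ± 0.24 on AT-I minus AT-II (SE; limma, adjusted p = 0.203), and -0.21 without AT-I day 2 replicate 2, its lowest array. F3 at day 2 was 0.23 with an interval of -1.91 to 2.36. The F3 difference at day 2 was -0.92 without AT-I replicate 1 and 1.46 without AT-II replicate 1. At day 4 the differences of the genes other than F13a1 lay between -0.21 for Plaur and 0.29 for F3. The median of the 9 was -0.03 at day 4 and -0.15 at day 2, against -0.03 and -0.09 for all genes.

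Ordered by group mean, most neighbouring groups of a gene did not differ beyond their spread. Of 27 neighbouring pairs over the 9 genes, 4 had a gap over the larger SD of the pair, in 3 genes. This rule is a description and not a test, and the share of all genes that meet it was not computed. For Serpine2 the day 4 groups led, AT-II just above AT-I, followed by AT-II and then AT-I at day 2, with gaps over the SD below AT-I day 4 (1.16 against 0.48) and, barely, below AT-II day 2 (0.604 against 0.602). For F10 the gap was between AT-I day 4 and AT-I day 2 (0.42 against 0.26), and for F13a1 between AT-I day 2 and AT-II day 2 (0.15 against 0.14). Neither difference passed (limma, adjusted p = 0.142 for F10 and 0.540 for F13a1), and the F13a1 groups overlapped. The 6 other genes had no such gap.

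Genes with the most similar pattern over the 15 samples were named by Pearson's r, as a description over samples that share group and array spread. For Serpine2 these were Gpx3 (r = 0.98), Cpq (0.98) and Igsf3 (0.98), and the nearest of the 9 genes was Plau (0.61). For Plau they were Bhlhe41, Lima1 and Ckb, each at 0.95. Plaur was nearest to Slc16a3 (0.97), Junb (0.95) and Osm (0.94), which encode a lactate transporter, a transcription factor and oncostatin M. Among the 9 its nearest was F3 (0.74). Both genes had their highest values in the 2 day 2 samples numbered 1. Without those samples the mean of F3 was higher at day 4 and that of Plaur lower, and r was not computed without them. F3 was nearest to Cdkn1a (0.93), Arg2 (0.92) and Csf3 (0.91), which encode a cell-cycle inhibitor, an arginase and the granulocyte growth factor G-CSF. Serpinb2 was nearest to Serpinb10 (0.98), Tuba4a (0.96) and Selp (0.96), which encodes P-selectin and is 1 of the listed platelet markers. Plat was nearest to Tgfb2 (0.85), Penk (0.82) and Mcam (0.75). F10, F13a1 and Thbd reached at most 0.86, 0.81 and 0.86 with any gene.

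In the rest of the plasminogen system, 15 of 17 listed genes were measured. Of these, 1 rose and 1 fell at day 4 on AT-I, where 11.5% of all genes passed, and 0 passed on AT-II, where 3.33% did (limma, adjusted p under 0.05). Plgrkt, a cell-surface plasminogen receptor, read 6.64 to 7.50 in AT-I day 4 arrays and 6.13 to 6.71 in AT-I day 2 arrays, and rose by 0.76 ± 0.18 (SE; limma, adjusted p = 0.0102). Klkb1, plasma prekallikrein, read 4.36 to 5.46 in AT-I day 4 arrays and 5.18 to 5.86 in AT-I day 2 arrays, within the range of the receptor rows (middle 90% from 3.59 to 6.22), and fell by 0.74 ± 0.23 (SE; limma, adjusted p = 0.0442). The Klkb1 call held in 12 of 28 other settings and the Plgrkt call in 27 of 28. On AT-II the smallest p-values were those of Eno1 and Cpb2, both at -0.24.

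In the rest of the coagulation cascade, the 3 genes that rose on both surfaces, Vkorc1, Ggcx and Lman1, act in the making of clotting factors. Of 17 measured genes (19 listed), 4 rose and 1 fell at day 4 on AT-I, and 3 rose and 0 fell on AT-II. Of all genes 8.84% rose and 2.66% fell on AT-I, and 3.13% rose and 0.203% fell on AT-II. Vkorc1, which recycles vitamin K, averaged 11.78 ± 0.25 at day 4 and 10.08 ± 0.68 at day 2 on AT-I (SD, n = 4 each), and rose by 1.70 ± 0.27 (SE; limma, adjusted p = 0.000867). Ggcx, the carboxylase that uses that vitamin K on clotting factors and on bone matrix proteins, rose by 1.21 ± 0.16 on AT-I (SE; limma, adjusted p = 0.000192). Lman1, a cargo receptor that carries factors V and VIII out of the endoplasmic reticulum, rose by 1.08 ± 0.12 on AT-I (SE; limma, adjusted p = 5.9e-05). On AT-II the rises were 1.43 for Vkorc1 (adjusted p = 0.0122), 1.06 for Ggcx (0.00218) and 0.69 for Lman1 (0.00635), all by limma. Without AT-II day 2 replicate 1, Vkorc1 (1.21, adjusted p = 0.103) and Lman1 (0.61, 0.0588) no longer passed on AT-II, and without the averaged sample Vkorc1 (1.43, 0.0554) did not. Tgm2, a tissue transglutaminase related to factor XIII, read 8.81 to 9.19 in AT-I day 4 arrays and 9.37 to 10.31 in AT-I day 2 arrays, and fell by 0.90 ± 0.18 (SE; limma, adjusted p = 0.0043). F8, factor VIII, was the remaining gene that rose on AT-I, by 0.55 ± 0.16 (SE; limma, adjusted p = 0.0343), and is named after its value was seen. The F8 call held in 19 of 29 other settings and was lost without AT-I day 2 replicate 1 (0.46, limma adjusted p = 0.104) or 4 (0.49, 0.0926). It was also lost without AT-I day 4 replicate 1 (0.57, 0.0667), 2 (0.45, 0.104) or 4 (0.60, 0.0543).

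Among anticoagulants and thrombin receptors, 16 of 17 listed genes were measured, and 4 rose and 0 fell at day 4 on AT-I, while 1 rose and 0 fell on AT-II. The shares of all genes were 8.84% higher and 2.66% lower on AT-I, and 3.13% and 0.203% on AT-II. Ptgis, prostacyclin synthase, whose product inhibits platelets, read 7.31 to 8.26 in AT-I day 4 arrays and 5.34 to 5.91 in AT-I day 2 arrays, and rose by 2.24 ± 0.29 (SE; limma, adjusted p = 0.000133). Its day 2 values lie within the middle 90% of the receptor rows (3.59 to 6.22), near the low end of the array, so the size of its rise is less certain than its direction. On AT-II it read 6.98 to 8.57 in day 4 arrays and 5.01 to 6.06 in day 2 arrays, and rose by 2.05 ± 0.31 (SE; limma, adjusted p = 0.00109). Averaging the rows that read Ptgis, the rise was 1.41 on AT-I and 1.36 on AT-II. Pros1, protein S, the cofactor of activated protein C, rose by 1.09 ± 0.15 on AT-I (SE; limma, adjusted p = 0.000202), and its AT-II difference was 0.42 ± 0.16 (SE; limma, adjusted p = 0.226). F2r, the thrombin receptor PAR1, rose by 0.73 ± 0.18 on AT-I (SE; limma, adjusted p = 0.0131). Its call was lost with each array's interquartile range as a covariate (0.54, limma adjusted p = 0.0896) and with array weights (0.57, 0.0508). The F2r difference on AT-II was 0.18 and did not pass. Tfpi, the inhibitor of the tissue factor pathway, rose by 0.66 ± 0.13 on AT-I (SE; limma, adjusted p = 0.00432).

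The medians of these lists stayed near those of all genes. Many listed genes read low, however. Among them, Plg, Vtn, Hrg, F2, F9, F11, Fga, Fgb, Fgg, Proc, Serpinc1 and Serpind1 read below 6.22 in all arrays. That value is the upper end of the middle 90% of the receptor rows. For genes at such signal a difference near 0 does not show that they were unchanged. On AT-I they were -0.04 for the plasminogen list, -0.15 for the coagulation list and -0.15 for the anticoagulant list, and on AT-II -0.07, -0.10 and 0.02. Between the surfaces 0 genes of the 3 lists passed at day 4 or at day 2. AT-I minus AT-II was -0.50 for Tgm2 at day 4 (limma, adjusted p = 0.913). At day 2 it was -0.65 for Plgrkt and 0.77 for Klkb1 (limma, adjusted p = 0.128 each). Other settings were followed by name only for list genes that passed between the days. Counting all 16 arrays separately, Plgrkt, Klkb1, Lman1, F8, Pros1 and Tfpi of these passed between the surfaces at day 2. There 0 of the 9 genes did, and 12.7% of all genes passed. With the replicate number as a random block F2r joined them (limma, adjusted p = 0.0279), where 27.3% of all genes passed. With a fixed block F2r (0.0412) joined and Tfpi did not pass (22.2% of all genes). Array weights called Plgrkt, Klkb1, Lman1, F8 and Pros1 (21.5% of all genes). With each array's interquartile range as a covariate none of these passed (limma, adjusted p = 0.996 each; 0.00% of all genes). The day 2 differences were then 0.25 for Klkb1, -0.27 for F8, -0.43 for Plgrkt and -0.17 for F2r. Those of Lman1 (-0.42), Pros1 (-0.54) and Tfpi (-0.36) moved less. Surface and array spread cannot be told apart at day 2 for these genes either. Counted without names, up to 3 plasminogen, 4 coagulation and 5 anticoagulant genes passed at day 2 in other settings, so genes not named here passed too. The mesenchymal and osteoblast marker means given beside Serpine2 were higher at day 4 in the same arrays as these rises, and their part in them was not tested.

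**Figure D4:**
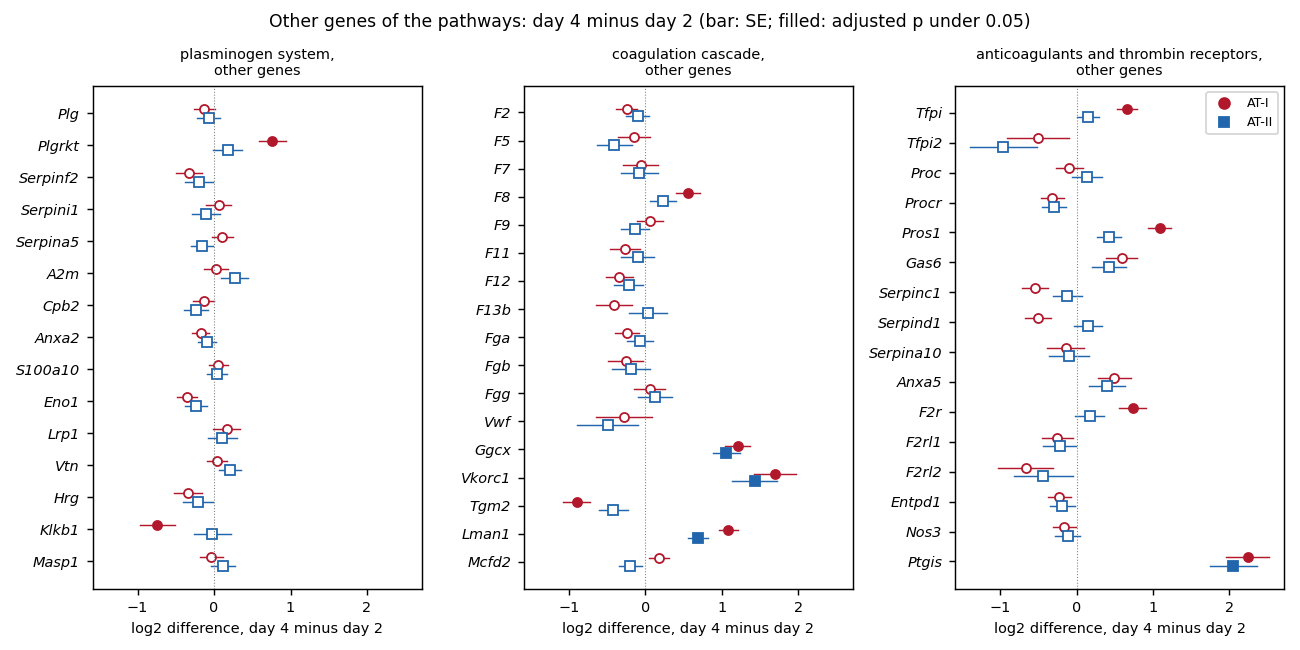
Log2 difference between day 4 and day 2 (horizontal axes) of each measured gene of the 3 pathway lists, with circles for AT-I, squares for AT-II, bars for the SE and filled marks for adjusted p under 0.05. Ptgis (2.24 and 2.05), Vkorc1 (1.70 and 1.43) and Ggcx (1.21 and 1.06) lie to the right on both surfaces. Most other genes lie near 0, many of them genes of low signal.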

How the data were processed

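Per the labels' protocols, RNA of implant-adherent cells went onto 16 arrays. The authors' deposited table was read as log2 values. RMA and Affymetrix Expression Console are named, without versions, in the submitters' processing notes. Which filters and build were used is not given in the sources used here. Base 2 is inferred from RMA. Values ran from 1.82 to 14.0, and the number of arrays limits precision.

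Groups came from the sample titles. Rows were named through the platform annotation: 18644 of 29214 rows named 1 gene, 962 several and 9608 none, and 18460 matched the GRCr8 table by gene identifier with 0 symbols changed. Of 17245 genes, 879 had more than 1 row, read here from their brightest row on average. limma 3.58.1 in R 4.3.3 (lmFit on group means without covariates, eBayes, two-sided, tested on simulated data) was fitted to all genes, with adjusted p under 0.05 as the threshold. The fit had 11 residual and 4.44 prior degrees of freedom. The labels call the arrays separate samples, and p-values measure the spread between them. Each rat carried both surfaces, but which arrays shared a rat is not known, so no pairing entered the main fit. Its p-values between the surfaces therefore treat the 2 tibiae of a rat as independent samples. Same-numbered samples of the 2 surfaces did not deviate together throughout (correlations from -0.34 to 0.64). These correlations bear on the numbering only and cannot show whether tibiae of the same rat were alike.

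The genes, marker lists, pathway lists, the averaging and the tests were chosen with earlier results of these data known. Named were all 9 genes and up to 4 passing genes per pathway list, with F8 added outside that limit. The 3 most similar genes were named for each of the 9 but F10, F13a1 and Thbd, for which only the highest r is given. Altogether 30 other settings were run: 15 leaving out 1 sample, 14 others planned and 1 added. Python 3.11.15 with pandas 2.3.3 was used for promoters and figures. A protein comparison of the serpins was not made.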

Additional observations from a re-analysis of the deposited data

Results flagged for a closer look

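Of 27 groups of 4 samples tested for a sample far from the others, 3 were marked, and chance marks about 1 in 20. AT-II day 2, with n = 3, was too small to be tested. F3 in its replicate 1 read 9.83, against 6.07 to 6.19 in its other arrays. F3 in AT-I day 2 replicate 1 read 11.02, against 6.07 to 6.64 in the other 3 arrays. Thbd in AT-I day 2 replicate 4 read 6.03, against 5.63 to 5.67 in the others, all of them low on the array. Serpinb2 in AT-II day 4 replicate 3 read 5.64, against 6.85 to 7.08 in the others, and the same array had the lowest platelet and neutrophil marker means of its group.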

How the results depend on the processing

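Serpine2 stayed higher at day 4 on AT-I and passed in 29 of 29 other settings, with differences of 1.47 to 1.94, and on AT-II it passed in 23 of 29, with differences of 1.09 to 1.27; a fixed replicate block gives no value between the days. The count of the 9 genes called on AT-I was 2 with all 16 arrays counted separately (13.1% of all genes called), 2 with array weights (13.7%), 2 of 7 among genes with a mean of at least 7 (18.4%) and 2 with the replicate number as a random block (13.1%, consensus correlation 0.174), in each case Plaur beside Serpine2. It was 4 with arrays centred at their medians (14.5%). On AT-II it was 2 with array weights, which added F10 (-0.60, limma adjusted p = 0.0446; 7.12% of all genes called). Leaving out 1 sample at a time gave counts of 1 to 2 on AT-I and 0 to 1 on AT-II. Between the surfaces and in the difference between the time courses the count of the 9 genes was 0 in all settings, including 0 with the replicate number as a fixed block, so the block changed no other call of theirs. Several surface differences that passed in no setting changed sign, as F3 did at day 2 (-0.92 to 1.46).

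Over all genes, 1983 passed between the days on AT-I (1060 with only the groups compared fitted, 1314 with each array's interquartile range as a covariate, 1158 to 2954 leaving out 1 sample) and 575 on AT-II (1228 with array weights, 849 with 16 arrays, 223 to 694 leaving out 1 sample). Between the surfaces at day 2 the number was 0, against 2193 with 16 arrays, 3713 with array weights, 3823 with a fixed and 4702 with a random replicate block and 711 without AT-I day 2 replicate 2. On AT-I, genes called in the anticoagulant list numbered 4 (3 to 8 in other settings). F10 and Thbd read too near the low end to be tested in the filtered setting. The causes of these shifts were not tested.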
